A study of Mus musculus with 3 samples.

Results

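The genes described are those that encode the proteins of the mitochondrial ribosome under the symbols Mrpl, for the large subunit, and Mrps, for the small subunit. All genes were taken whose symbol is one of these followed by a number and which had a protein-coding transcript in the annotation. This gave 78 genes, 49 of the large and 29 of the small subunit, of 22028 protein-coding and 55536 annotated genes. The rule reads symbols and transcript classes and no measured value.

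RNA with a poly(A) tail was sequenced from bone-marrow-derived macrophages, primary phagocytes grown from marrow precursors of C57BL/6J mice. All 3 libraries belong to 1 group. The cells had 100 ng/ml lipid A for 12 h, then 12 h without it, then 100 ng/ml lipid A again for 480 min, and 1 µg of RNA went into each library. The treatment fields of the labels name lipoprotein A instead, and lipid A, the part of lipopolysaccharide that Toll-like receptor 4 senses, is used here after the written description. Sex and age were not collected, and no untreated library was analysed here, so the data give levels and spread but no effect of the stimulation. The replicates share 1 donor record and may not be separate animals, so the spread between these libraries may be technical. The p-values below speak for these libraries and not for animals. The chi-square test below sets that spread against counting error. The main limma comparison below uses a variance pooled over all genes.

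The mitochondrial ribosome sits in the matrix and translates the few messenger RNAs of the mitochondrial genome, all of which encode core subunits of the respiratory chain and ATP synthase. Its ribosomal RNAs come from mitochondrial DNA, whereas every protein is encoded in the nucleus, made in the cytosol and imported. Part of the proteins descend from bacterial ribosomal proteins, and the rest were added in the mitochondrial lineage. In macrophages, activation through Toll-like receptor 4 is known to change the use of the respiratory chain, which depends on this ribosome.

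The libraries held 24596382, 54016971 and 43127749 expected counts in replicates 1, 2 and 3. All 7 macrophage markers were found, at mean levels of 74.8 to 9400 TPM (a read count scaled for transcript length and library depth). The T cell and fibroblast markers stayed under 1 TPM in every library and the 4 erythroid markers had 0 counts. Among the B cell and neutrophil markers, 1 of 4 and 1 of 5 were at 1 TPM or more in every library. These were Cd79b at 1.59, 1.76 and 3.22 TPM and S100a8 at 1.27, 6.91 and 2.45 TPM in replicates 1, 2 and 3. The 5 neutrophil markers summed to 1.36, 12.0 and 2.61 TPM and so were highest in replicate 2. Their part in the results below was not tested. Replicate 2 stood apart for many genes. Its 13 mitochondrial messenger RNAs had a median of 8086 TPM, against 957 and 956 TPM in replicates 1 and 3. The main levels and counts are therefore also given without it.

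Every one of the 78 genes was transcribed. All reached 1 TPM in each library, a level that 42.9% of protein-coding genes reached throughout. At 10 TPM or more in every library stood 58 members, or 74.4%, beside 24.1% of protein-coding genes. Mean levels ran from 9.59 TPM for Mrps27 to 135 TPM for Mrps21, with a median of 27.7 TPM. Detected genes, here the 10350 protein-coding genes that reached 1 TPM in any library, had a median of 15.1 TPM. Above that median stood 65 members. The expected counts behind single members ran from 103 for Mrpl23 in replicate 1 to 3392 for Mrps15 in replicate 2. All members together took 0.141%, 0.116% and 0.176% of the counts of replicates 1, 2 and 3.

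Set against the detected genes of the same library, the members' median was higher by 0.86, 0.53 and 1.10 on the log2(TPM + 1) scale in replicates 1, 2 and 3. The mean was 0.83 ± 0.29 (SD, n = 3). The difference was positive in every library and lowest in replicate 2. Without replicate 2 it was 0.95. Members also had shorter transcripts. Their most abundant transcripts had a median length of 914 bases, beside 2530 bases for detected genes. Across the 78 members, level and that length had a Spearman rho of -0.43 (Pearson -0.36), and across 10339 detected genes -0.18 (Pearson -0.06). These are descriptions across genes of the same libraries, and TPM is itself divided by length.

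**Figure D1:**
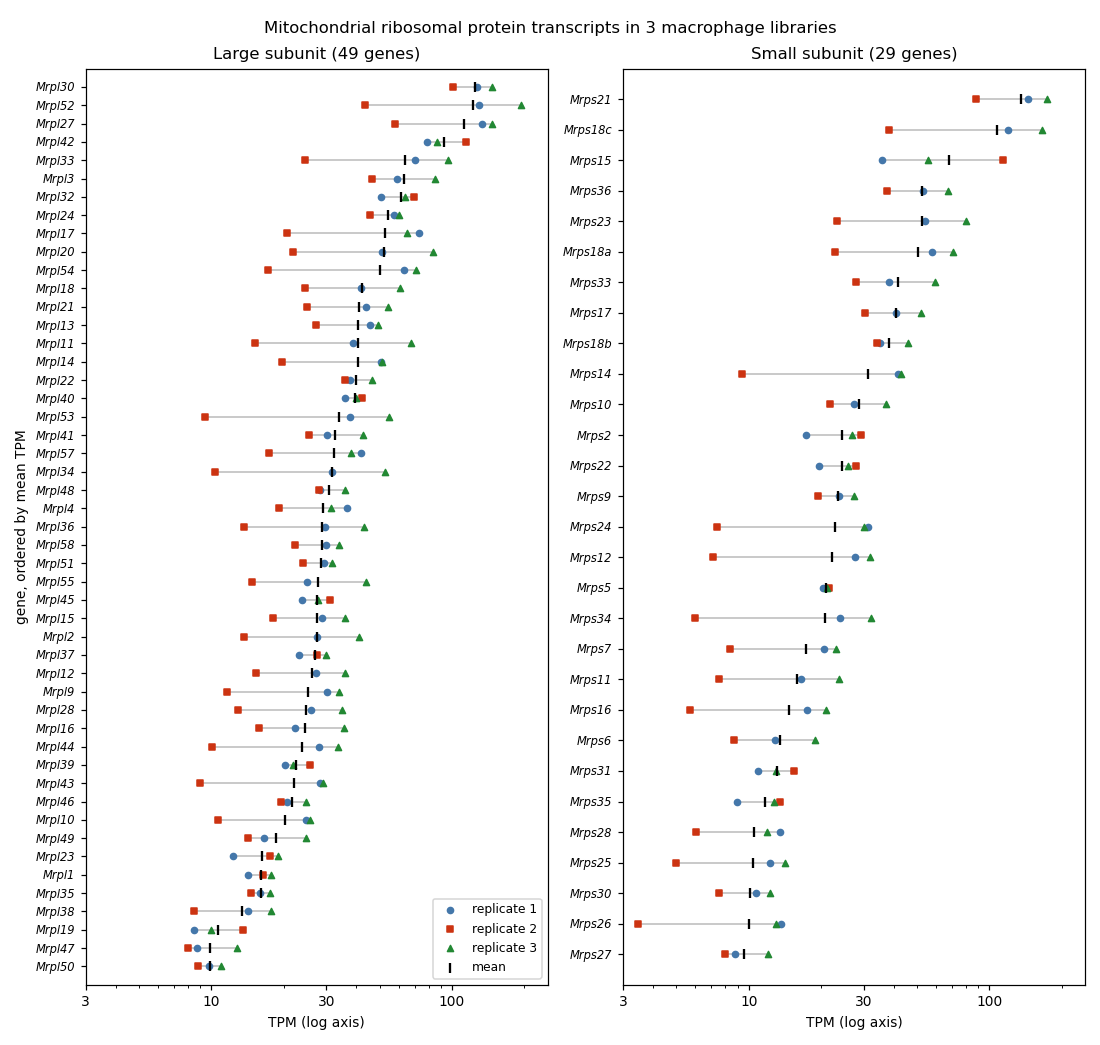
TPM of each gene in the 3 libraries on a log axis, large subunit left and small subunit right, ordered by mean. Circles, squares and triangles are replicates 1, 2 and 3, bars are means, and grey lines span the libraries. Replicate 2 is the leftmost point for 63 of 78 genes, and Mrps15 is the clearest exception.

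The large subunit carries the peptidyl transferase centre, where peptide bonds form, and the tunnel through which the new protein leaves. Its most abundant transcript was Mrpl30, a homologue of a bacterial large-subunit protein, at 127, 101 and 147 TPM in replicates 1, 2 and 3. It alone was above 100 TPM in every library. Mrpl52, a mitochondria-specific protein, had 130, 43.4 and 194 TPM. Mrpl27, whose bacterial homologue reaches into the peptidyl transferase centre, had 133, 57.9 and 147 TPM. Both were lowest in replicate 2 by a wide margin. Mrpl42, another mitochondria-specific protein, had 78.9, 114 and 86.3 TPM and was highest there. Mrpl33 had 70.3, 24.4 and 95.9 TPM, again lowest in replicate 2. Mrpl3, a core protein that binds ribosomal RNA early in assembly, had 58.8, 46.3 and 85.1 TPM.

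At the low end of the large subunit, Mrpl50 had 9.81, 8.78 and 10.9 TPM. Mrpl47 had 8.69, 8.02 and 12.8 TPM. Mrpl19 had 8.46, 13.6 and 9.93 TPM, and Mrpl38 had 14.2, 8.43 and 17.7 TPM. Mrpl38 was lowest in replicate 2 and Mrpl19 highest there. For Mrpl19 this did not hold in the second quantification set out below. Of the large-subunit proteins with a known role beyond structure, Mrpl12, which forms the stalk that recruits translation factors, had 27.2, 15.3 and 36.1 TPM. Mrpl58, a peptidyl-tRNA hydrolase that frees stalled ribosomes, had 29.9, 22.4 and 34.0 TPM. Both lay close to the median of the large subunit, 28.8 TPM.

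The small subunit binds the messenger RNA and holds the decoding centre. Mrps21 led it at 145, 88.3 and 173 TPM. Mrps18c followed at 120, 38.2 and 166 TPM. Mrps15, which in bacteria binds the ribosomal RNA of the platform early in assembly, had 35.6, 114 and 55.4 TPM. It was the only 1 of these 3 that was highest in replicate 2. Mrps36 had 53.1, 37.7 and 67.1 TPM. Mrps23 had 53.8, 23.2 and 80.1 TPM. Lowest in the small subunit were Mrps27, a pentatricopeptide repeat protein, with 8.73, 8.0 and 12.0 TPM, and Mrps26 with 13.6, 3.45 and 13.0 TPM. Mrps30 had 10.7, 7.49 and 12.3 TPM, and Mrps25 had 12.2, 4.97 and 14.1 TPM. Mrps12, at the decoding centre, had 27.7, 7.11 and 31.8 TPM, so its level in replicate 2 was far under the other libraries.

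Mammals keep 3 paralogues of the bacterial small-subunit protein S18, and they differed in level. Mrps18c was highest at a mean of 108 ± 64.5 TPM (SD, n = 3). Mrps18a averaged 50.4 ± 24.6 TPM, from 57.7, 22.9 and 70.5 TPM. Mrps18b averaged 38.4 ± 6.6 TPM, from 35.2, 34.0 and 46.0 TPM. The order Mrps18c over Mrps18a held in each library, and the order Mrps18a over Mrps18b did not hold in replicate 2. The spreads of all 3 overlapped.

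Transcripts of the large subunit were somewhat more abundant than those of the small subunit. The median level on the log2(TPM + 1) scale was 4.95 for the large and 4.63 for the small subunit in replicate 1. It was 4.33 and 4.04 in replicate 2, and 5.28 and 4.83 in replicate 3, large subunit first. The difference, large minus small, was 0.32, 0.29 and 0.45 in these libraries, or 0.35 ± 0.08 (SD, n = 3). It had 1 sign in 3 of 3 libraries. The exact two-sided sign-flip permutation test gave p = 0.25, the smallest that 3 libraries allow, so the difference cannot pass 0.05 in this design.

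The subunits overlapped broadly. Of the large subunit, 43 of 49 genes stood at 10 TPM or more in every library, and of the small subunit 15 of 29. Without replicate 2 the counts were 46 of 49 and 27 of 29, or 93.9% and 93.1%, so this contrast rested on replicate 2. The lower quartile of mean levels was 23.9 TPM in the large and 13.5 TPM in the small subunit. The upper quartiles were both 41.1 TPM. Over replicates 1 and 3 alone, the lower quartiles were 26.6 and 15.9 TPM and the upper ones 51.3 and 45.5 TPM, large subunit before small. Of the large subunit, 37 genes lay above the median of the small one, and 10 small-subunit genes lay above the median of the large one. Symbols and structures disagree on a few proteins. Mrps18a and Mrps30 sit in the large subunit of the mammalian ribosome, and Mrps36 was later assigned to the 2-oxoglutarate dehydrogenase complex. With Mrps18a and Mrps30 counted as large and Mrps36 left out, the difference was 0.42, 0.38 and 0.47, with a mean of 0.42 ± 0.04.

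**Figure D2:**
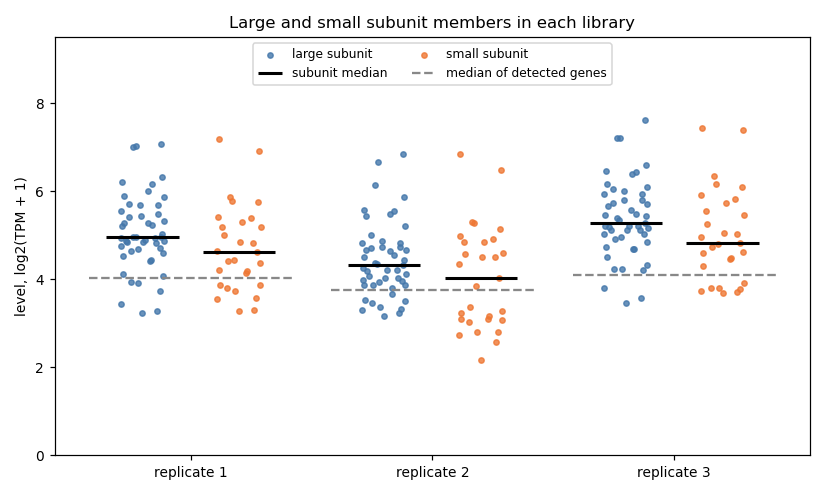
Levels of 49 large-subunit genes (blue, left of each pair) and 29 small-subunit genes (orange, right) in each library, as log2(TPM + 1). Black bars are subunit medians and dashed lines the medians of detected genes. The large-subunit median is above the small-subunit median in all 3 libraries, by 0.29 to 0.45.

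By the current nomenclature of ribosomal proteins, 46 members are counted as homologues of bacterial ribosomal proteins and 32 as specific to mitochondria. Mrps18a and Mrps18b, though related to S18, are among the 32 because Mrps18c holds the bacterial name. The bacterial homologues of the large subunit had a median of 30.3 TPM (30 genes) and its mitochondria-specific proteins 28.5 TPM (19 genes). In the small subunit the medians were 23.2 TPM (16 genes) and 20.7 TPM (13 genes). By these medians origin separated levels less than subunit did. It went with a wider spread between libraries. The SD of log2 levels over the 3 libraries had a median of 0.58 in bacterial homologues and 0.35 in mitochondria-specific members. In detected genes it was 0.37. Replicate 2 differed between these groups in the large subunit. The median deviation there, explained in the next paragraph, was -0.44 in bacterial homologues and -0.12 in mitochondria-specific members. No test was made of this.

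The spread between libraries followed 1 pattern. After each library was centred on the median of its detected genes, the members' median deviation from the 3-library mean was 0.03, -0.33 and 0.28 in replicates 1, 2 and 3. The counts that follow use TPM of the first of 2 quantifications, set out below. Lowest in replicate 2 were 63 of 78 members, or 80.8%, beside 58.5% of detected genes. In the second quantification many of these members, such as Mrpl30, Mrpl24 and Mrpl22, were lowest in replicate 1 instead. The count of 63 is thus that of the first quantification, and the second gives fewer. Highest in replicate 3 were 60, or 76.9%, beside 45.9%. In 34 members, or 43.6%, replicate 2 was under 50% of the mean of the other libraries, which held for 24.6% of detected genes. Scaled counts did not always follow TPM, as set out with the count test below. The median deviation in replicate 2 was -0.33 in the large and -0.32 in the small subunit.

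Lowest there relative to the mean was Mrpl53, a mitochondria-specific large-subunit protein, at 37.8, 9.40 and 54.7 TPM. Mrps14 followed at 41.9, 9.40 and 43.0 TPM. Mrps34, known to be needed for a stable small subunit, had 23.9, 5.95 and 32.3 TPM. Replicates 1 and 3 were nearer to each other than to replicate 2 in these genes. In the opposite direction, 12 members, or 15.4%, were highest in replicate 2 by the first quantification, beside 27.2% of detected genes. Mrps15 was the most extreme at 2.50 times the mean of the other libraries. Least variable in TPM was Mrps5, a small-subunit homologue of a bacterial protein near the decoding centre, at 20.3, 21.6 and 21.2 TPM. Its counts did differ between libraries, with an adjusted p of 4.76e-22 by the chi-square test given below. In the second quantification it had 20.4, 26.1 and 27.3 TPM.

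These shifts went with base composition. The GC content of each gene's most abundant transcript and its deviation in replicate 2 had a Spearman rho of -0.47 over the 78 members (Pearson -0.45). Over 10339 detected genes rho was -0.43 (Pearson -0.39). In 5 equal bins of GC content of detected genes, from low to high, the members' median deviations in replicate 2 were 0.14, -0.04, -0.19, -0.40 and -0.68. The detected genes of the same bins had medians of 0.21, 0.16, 0.04, -0.18 and -0.37. Members were below the detected genes in each bin, and both fell with rising GC content. The lowest bin held 6 members. Each point is the deviation of replicate 2 from a mean that includes all 3 libraries. Members also had shorter transcripts than detected genes. The parts of base composition and of length in the members' shift were not tested.

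**Figure D3:**
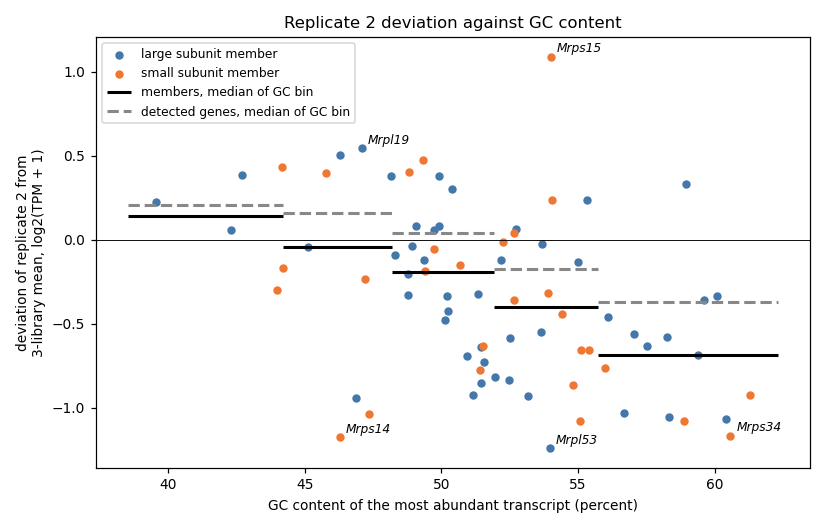
Deviation of replicate 2 from the 3-library mean in log2(TPM + 1), centred on detected genes, against GC content of the most abundant transcript, for large (blue) and small (orange) subunit members. Black and dashed grey lines are medians of members and of detected genes in 5 bins of GC content. Most members lie below 0, further so at high GC, with Mrps15 at 1.09.

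Other gene groups moved in the same library. Cytosolic ribosomal proteins had a median deviation of -0.73 in replicate 2, and 73 of 77 were lowest there. Nuclear genes of the respiratory chain and ATP synthase had -0.57, with 71 of 85 lowest there. Mitochondrial messenger RNAs went the other way at 2.01, and the ribosomal RNAs mt-Rnr1 and mt-Rnr2, the scaffold of this ribosome, were at 1779 and 1641 TPM in replicate 2. They had 668 and 615 TPM in replicate 1, and 828 and 751 TPM in replicate 3. How far these shifts share a source with that of the members was not tested. In bulk RNA, fewer cells of a kind and less RNA per cell cannot be told apart.

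The spread was larger than counting error in most members. A chi-square test of homogeneity on counts scaled by TMM, adjusted by Benjamini-Hochberg over 11932 genes, called 72 of 78 members. All 78 had passed the filter on low counts. The background was 87.9% of genes tested, so 92.3% of members is close to what all genes gave. Not called were Mrps21, Mrpl24, Mrpl13, Mrpl48, Mrps9 and Mrpl50, with adjusted p from 0.0549 to 0.824. Counts and TPM could part. Mrps21 had 544, 991 and 1036 expected counts in replicates 1, 2 and 3, and 145, 88.3 and 173 TPM. Its adjusted p was 0.55 by the chi-square test. Mrps25 had 394, 1030 and 955 counts, and its TPM was lowest in replicate 2 at 12.2, 4.97 and 14.1. In Mrpl53 counts were lowest in replicate 2 too, at 282, 186 and 705. Without replicate 2 the test called 39 members, or 50%, beside 55.0% of 12181 genes. No member was called for varying more than genes of like abundance. The F test of residual variance in edgeR's quasi-likelihood fit called 0 of 78 members beside a background of 0% of 11932 genes. With 3 libraries and no gene called at all, it could not show whether members vary more than other genes. At an unadjusted p under 0.05 it held 1 member, Mrps15 (adjusted p = 0.933 by edgeR), or 1.28%, beside 4.22% of all genes. With DESeq2 size factors in place of TMM it also called 0 members.

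The authors quantified each library by a pair of methods. The first, from alignments to the transcriptome, gave the levels above. The second compared the reads directly with indexed transcript sequences. Second minus first, 77 of 78 members differed by less than 0.5 on the log2(TPM + 1) scale, as a mean over the libraries. Single libraries could differ more. In replicate 1 Mrps21 had 91.8 TPM in the second and 145 TPM in the first quantification. In replicate 2 it had 86.4 and 88.3 TPM. Only Mrpl23 was called by limma (adjusted p under 0.05 and a difference of at least 1), beside a background of 1.74% of 10212 genes, 0.48% in the lower direction. The other members ran from -0.30 for Mrps21 to 0.46 for Mrpl19. Mrpl19 had 12.1, 14.1 and 18.9 TPM in the second and 8.46, 13.6 and 9.93 TPM in the first quantification. It was thus highest in replicate 3 in the second and in replicate 2 in the first. The library with the lowest level also changed in many members. Mrpl30 had 95.8, 103 and 152 TPM and Mrpl3 43.1, 46.1 and 81.7 TPM in the second quantification, lowest in replicate 1. Others, such as Mrpl53 at 32.4, 9.78 and 50.7 TPM, stayed lowest in replicate 2.

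Mrpl23, a homologue of the bacterial protein at the exit of the peptide tunnel, had 2.65, 0.398 and 4.90 TPM in the second quantification. In the first it had 12.3, 17.6 and 18.9 TPM. It was lower in the second in every library, and furthest apart in replicate 2. The mean difference was -2.45 ± 1.11 (SD, n = 3), with an adjusted p of 9.07e-39 by limma over 10212 genes. That p rests on a single variance that limma pooled over all genes, with a standard error of 0.18. With a robust prior variance, added after seeing the data, the adjusted p was 1.93e-07. With no filter on TPM, limma's adjusted p was 0.791 and Mrpl23 was not called. Without replicate 2 the difference was -1.81.

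The gene lies at chr7:142532686-142540747 on the plus strand (mm10). Its processed pseudogene Mrpl23-ps1, an intronless copy with no protein-coding annotation, lies at chr2:74591330-74591909 on the minus strand. The transcripts, of 692 and 580 bases, share an unbroken run of 540 identical bases. The run holds all 441 coding bases of Mrpl23 and leaves 152 bases to the gene and 40 to the pseudogene. To show what an aligner faces, the first 120 coding bases of the gene and the matching stretch of the pseudogene are printed, with the start codon in capitals.

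Mrpl23-201: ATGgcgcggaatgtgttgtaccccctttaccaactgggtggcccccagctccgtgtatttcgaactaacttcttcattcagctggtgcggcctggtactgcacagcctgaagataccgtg
Mrpl23-ps1-201: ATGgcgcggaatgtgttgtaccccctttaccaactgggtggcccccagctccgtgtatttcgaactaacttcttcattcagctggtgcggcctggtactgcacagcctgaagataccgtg

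The stretches do not differ at any base, so a read from within them fits both. The second quantification gave Mrpl23 16.7%, 5.28% and 13.6% of the counts of gene and pseudogene in replicates 1, 2 and 3. The first gave it 38.7%, 61.7% and 40.7%. The counts of the pair together were 352, 541 and 678 in the second and 266, 509 and 621 in the first quantification. The total was thus much closer between methods than its division. Mrpl23-ps1 had 29.6, 13.0 and 39.4 TPM in the first quantification. The levels of Mrpl23 and of the pseudogene taken alone are uncertain. The other 4 annotated pseudogenes of members, of Mrpl48 and Mrps36, stayed at or under 4.19 expected counts in every library.

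**Figure D4:**
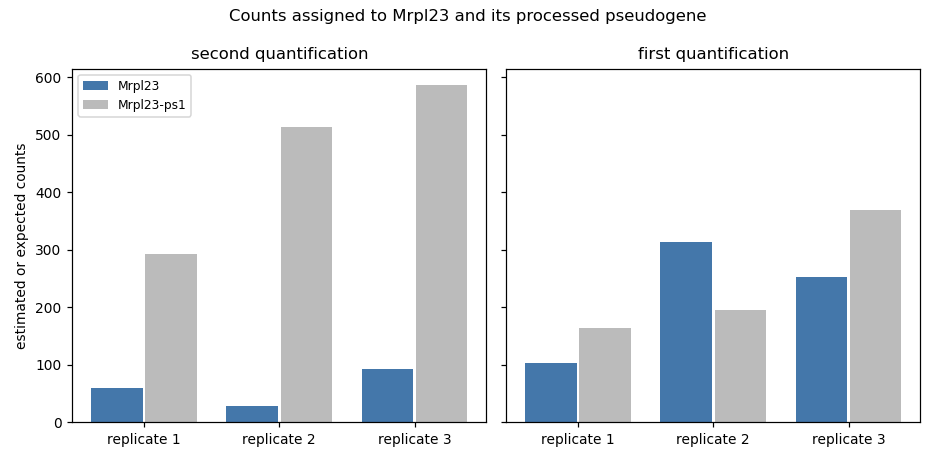
Counts assigned to Mrpl23 (blue, left bar of each pair) and Mrpl23-ps1 (grey, right bar) in each library, by the second (left panel) and first (right panel) quantification. The second assigns 29 to 92 counts to Mrpl23 and the first 103 to 314.

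By share of TPM, several members were represented mainly by transcripts that the annotation does not class as protein-coding. The 78 genes had 343 annotated transcripts, of which 170 were protein-coding, 88 retained-intron, 61 processed transcripts and 24 marked for nonsense-mediated decay. In 13 members, or 16.7%, protein-coding transcripts held under 50% of the gene's TPM, beside 7.87% of detected genes. These were 7 large-subunit and 6 small-subunit genes, and all 13 were under 50% in the second quantification too. In the median member the coding share was 95.9%. Under 50% in each single library were 10 of the 13.

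The strongest case was Mrpl32, a large-subunit protein matured by a mitochondrial protease. Protein-coding transcripts held 8.58%, 2.67% and 9.44% of its TPM in replicates 1, 2 and 3. In Mrps26 they held 8.73%, 15.4% and 7.39%, and in Mrpl57 12.2%, 7.68% and 13.9%. In Mrpl3 they held 15.6%, 13.6% and 14.9%. Replicate 2 was not at the same end in all of these. Among these 13 genes the shares ranged most widely in Mrps25, at 28.8%, 84.3% and 33.9%, and in Mrps35, at 29.7%, 61.8% and 22.9%. Among the other members, Mrpl14 ranged wider still, at 93.7%, 32.1% and 97.6%.

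The 13 genes share a layout in the annotation. In each, the most abundant transcript was shorter than the most abundant coding one. Its length ran from 467 to 1394 bases with a median of 707 bases. The coding transcripts ran from 1569 to 6073 bases with a median of 3364 bases. In the other 65 members the top coding transcript had a median of 1018 bases. For Mrpl32, the transcript marked for decay had 658 bases and the only expressed coding one 3013 bases. TPM divides counts by effective length, so a read adds more on a short transcript than on a long one. The coding shares given here are therefore shares of TPM and not of reads. The 2 methods named the same top transcript in 75 of 78 members. The exceptions were Mrps23, Mrps5 and Mrpl19. In single libraries the top transcript changed in 17 members. No share of detected genes is given beside these counts, so they are not read as particular to the members. Counted on protein-coding transcripts only, an alternative added after seeing the data, the large-minus-small difference was 0.54 ± 0.21 (SD, n = 3).

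**Figure D5:**
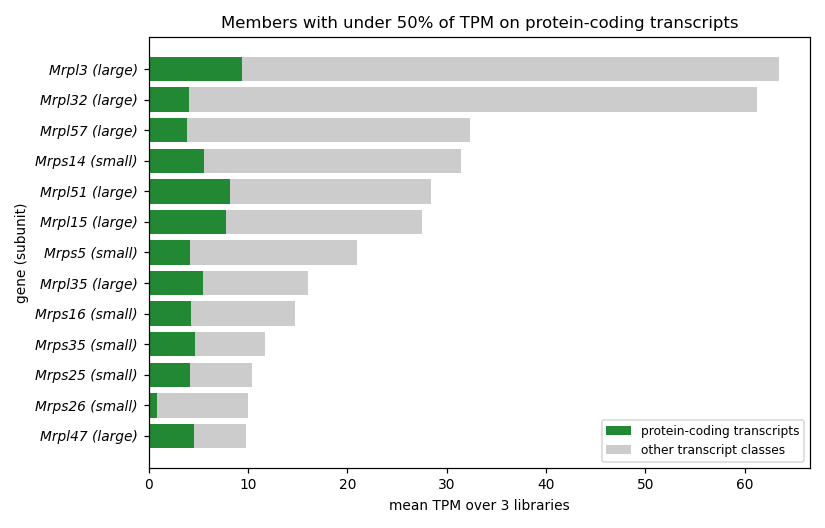
Mean TPM over 3 libraries of the 13 members with under 50% of TPM on protein-coding transcripts, split into protein-coding (green) and other transcript classes (grey). Mrpl3 and Mrpl32 exceed 60 TPM in all, of which 9.39 and 4.07 TPM are coding.

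Genes of mitochondrial ribosomal proteins are known targets of NRF1, of the ETS factor GABP and of YY1, all linked to nuclear genes for mitochondria. Promoters from RefSeq (GRCm38.p6, the mm10 assembly), 250 bases before to 50 after a start, were found for 69 of 78 members. They were searched on both strands for fixed letters. The ETS letters CCGGAAG stood in 26 of 69 promoters, or 37.7%. They stood in 22.7% of 8262 detected genes and in 9.93% of all 27025 genes in the table. The YY1 letters AAGATGGCG stood in 8 members, or 11.6%, beside 4.12% of detected genes. The NRF1 letters GCGCATGCG stood in 7, or 10.1%, beside 4.66% of detected genes. These were Mrpl9, Mrpl10, Mrpl17, Mrpl22, Mrpl32, Mrpl39 and Mrps18b, so 6 of the large subunit and 1 of the small. The GC-box letters GGGCGG stood in 49.3% of members and 69.2% of detected genes. The TATA letters TATAAA stood in 7.25% and 8.41%.

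No word was tested against chance, and a match is only a run of letters. ETS letters stood in 15 of 43 large-subunit and 11 of 26 small-subunit promoters. Members with them had a median of 39.3 TPM, and members without 24.6 TPM. Their median deviations in replicate 2 were -0.60 and -0.15. At least 1 of the ETS, NRF1 and YY1 words was in 36 of 69 members, or 52.2%, beside 29.2% of detected genes. The most abundant member with each word is printed, then the members lowest and highest in replicate 2, with these words in capitals. They were chosen after their values were seen. Mrps21 at chr3:95871465-95871764 (minus strand) and Mrpl53 at chr6:83108858-83109157 (plus) hold ETS letters, once and at 2 places. Mrpl32 at chr13:14612988-14613287 (minus) holds the NRF1 letters at 2 places, one of them a palindrome that matches on both strands, and Mrpl42 at chr10:95501900-95502199 (minus) the YY1 letters. Mrps15 at chr4:126046678-126046977 (plus) holds none of these words.

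Mrps21: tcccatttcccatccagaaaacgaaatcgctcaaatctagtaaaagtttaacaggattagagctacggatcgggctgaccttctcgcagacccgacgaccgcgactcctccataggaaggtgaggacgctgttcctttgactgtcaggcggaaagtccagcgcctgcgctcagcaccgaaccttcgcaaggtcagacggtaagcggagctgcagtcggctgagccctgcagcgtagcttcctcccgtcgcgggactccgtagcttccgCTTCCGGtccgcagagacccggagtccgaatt
Mrpl32: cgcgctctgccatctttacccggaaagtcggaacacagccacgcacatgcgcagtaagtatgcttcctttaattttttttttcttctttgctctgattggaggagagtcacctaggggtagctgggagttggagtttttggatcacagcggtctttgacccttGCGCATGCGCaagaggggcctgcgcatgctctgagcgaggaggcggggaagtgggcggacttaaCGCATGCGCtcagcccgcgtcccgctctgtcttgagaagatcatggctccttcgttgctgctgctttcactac
Mrpl42: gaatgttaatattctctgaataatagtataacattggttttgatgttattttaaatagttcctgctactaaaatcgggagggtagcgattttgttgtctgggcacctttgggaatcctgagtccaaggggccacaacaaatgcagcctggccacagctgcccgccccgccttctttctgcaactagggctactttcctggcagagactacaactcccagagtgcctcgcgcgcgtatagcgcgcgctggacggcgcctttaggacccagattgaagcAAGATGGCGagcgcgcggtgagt
Mrpl53: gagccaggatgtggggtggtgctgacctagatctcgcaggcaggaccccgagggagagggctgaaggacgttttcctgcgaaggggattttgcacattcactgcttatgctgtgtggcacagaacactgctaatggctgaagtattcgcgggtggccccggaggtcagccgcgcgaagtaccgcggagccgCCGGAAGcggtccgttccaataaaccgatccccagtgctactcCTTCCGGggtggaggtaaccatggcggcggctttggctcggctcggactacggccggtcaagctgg
Mrps15: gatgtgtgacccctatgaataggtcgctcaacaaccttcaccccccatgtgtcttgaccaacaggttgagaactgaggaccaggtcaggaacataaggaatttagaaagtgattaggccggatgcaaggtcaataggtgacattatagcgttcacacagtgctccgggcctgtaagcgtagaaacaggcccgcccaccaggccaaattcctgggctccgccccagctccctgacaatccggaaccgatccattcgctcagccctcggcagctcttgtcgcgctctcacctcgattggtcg

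In Mrpl42 the YY1 word lies past the RefSeq start, near the end of the window, as does the ETS word of Mrps21. In Mrpl53 both ETS words lie before the RefSeq start but after the start of the gene in GENCODE M21, which is 68 bases further upstream. The factors themselves were transcribed. Gabpa, the DNA-binding subunit of GABP, had 14.2, 37.2 and 11.5 TPM in replicates 1, 2 and 3, and Yy1 had 14.7, 50.3 and 14.9 TPM. Both were higher in replicate 2, whereas Nrf1 had 11.0, 7.95 and 11.3 TPM. Nfe2l2 was the most abundant of 11 listed regulators at 166, 166 and 134 TPM. Esrra had 32.4, 6.47 and 32.3 TPM. Ppargc1b, a coactivator, had 2.44, 2.00 and 2.38 TPM. Its relative Ppargc1a, the classical coactivator of mitochondrial genes, had 0 counts in every library. Of these 11 genes, 10 reached 1 TPM in every library.

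Partners of the ribosome were present as well. Of 5 ribosomal proteins under other symbols, all reached 1 TPM in every library. They ran from Gadd45gip1 at 5.71, 2.11 and 5.23 TPM to Chchd1 at 77.1, 42.4 and 97.7 TPM. Dap3, a small-subunit GTP-binding protein, had 33.8, 12.8 and 31.8 TPM, lowest in replicate 2, as were 4 of the 5. All 16 translation factors found reached 1 TPM in every library, of 18 listed. Tufm, the elongation factor that brings tRNA, had 27.7, 19.0 and 37.4 TPM. Gfm1, the translocase, had 22.8, 33.1 and 26.4 TPM. Slirp, which stabilises mitochondrial messenger RNA with Lrpprc, was highest at 138, 40.4 and 169 TPM. Lowest were Mrrf, which recycles ribosomes, at 3.93, 6.04 and 5.15 TPM, and the release factor Mtrf1l at 2.80, 5.67 and 4.69 TPM.

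Assembly factors were scarcer than the proteins they assemble, with a median of 6.93 TPM over 27 genes. At 1 TPM or more in every library were 25. The highest were Mpv17l2 at 29.4, 26.4 and 31.8 TPM and Fastk at 37.2, 13.9 and 35.3 TPM. The lowest were Mettl15 at 1.47, 0.99 and 0.84 TPM and Ybey at 1.01, 0.39 and 1.23 TPM. Of 20 genes for mitochondrial tRNA charging, 16 reached 1 TPM in every library, with a median of 6.40 TPM. Lars2 had the highest mean, from 424, 20.3 and 152 TPM, but in replicate 2 Gatc was higher at 46.5 TPM. The second quantification put Lars2 higher than the first by 2.24 on the log2(TPM + 1) scale (limma adjusted p = 1.39e-32, on the same pooled variance as for Mrpl23). With no filter on TPM it was not called. Of 7 genes of mitochondrial transcription, 5 reached 1 TPM in every library, led by Tfam, which packages and transcribes mitochondrial DNA, at 15, 34.4 and 16.9 TPM.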

How the data were processed

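Gene and transcript tables of 3 libraries were used, made on mm10 with GENCODE M21 according to text deposited beside them. The aligner, strandedness, read length and quantification tools were not given in the sources used here. Expected counts in the authors' first tables and estimated counts in their second tables split a read over candidate transcripts, per the file headers, and are often fractional. TPM in both of the authors' table kinds is a count corrected for effective length and scaled to the same total in every library, per the file headers. The percent of its gene that a transcript holds was taken from the authors' first transcript tables, per the file headers. The second tables were summed to genes. The members and lists were chosen with earlier results of these data known.

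Levels are log2(TPM + 1), with medians taken per library. Expected counts were rounded for count tests, and entries that name no gene (0.0464% to 0.0875% of counts) were left out. Counting noise was tested by chi-square on TMM-scaled library sizes, and excess variance by a one-sided F test in edgeR 4.0.16, after its filter on low counts kept 11932 genes. Quantifications were compared with limma 3.58.1 on protein-coding genes whose mean reached 1 TPM by either method, and calls needed an adjusted p under 0.05. DESeq2 1.42.0 gave alternative size factors. Adjusted p-values are Benjamini-Hochberg over all genes tested. These steps were tested on simulated data with known changes. For the F test only false calls had a limit to meet, and the share of known changes found had none. R 4.3.3, Python 3.11.15, pandas 2.3.3, scipy 1.17.1 and Biopython 1.88 were used.

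Values in every library are given for the 6 highest and 4 lowest members of each subunit, the members called, the S18 paralogues and members of known role. From the other lists they are given for up to 4 highest and 2 lowest genes. Members named for their deviation in replicate 2, coding share or promoter words, and Nrf1, Gabpa and Yy1, were chosen after their values were seen. Alternatives were another pseudocount, means, other backgrounds, filters, size factors, the second quantification and leaving out each library.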

Additional observations from a re-analysis of the deposited data

How the results depend on the processing

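No paired analysis was possible because all libraries belong to 1 group, so replicate numbers pair nothing. Leaving out each library in turn, 78 members stayed at 1 TPM or more, the members' excess over detected genes ran from 0.65 to 0.95, and large minus small ran from 0.31 to 0.38. Genes at 10 TPM or more ran from 43 to 46 in the large and from 15 to 27 (without replicate 2) in the small subunit. Members beyond counting noise ran from 39 without replicate 2, beside 55.0% of all genes, to 69 without replicate 1, beside 79.4%. Members with excess variance stayed at 0, and members that differed between quantifications stayed at 1. Against all protein-coding genes the members' excess was 4.45, where the median gene had a mean of 0.297 TPM. Without a filter on TPM, limma called 0 members between quantifications and 0 of 22028 genes. There, 2 members had an unadjusted p under 0.05, and Mrpl23 had an adjusted p of 0.791 by limma. The cause was not tested. With the second quantification 77 members reached 1 TPM in every library, the exception being Mrpl23. Other alternatives kept the direction of each difference and stayed within 1.5 times each count. Only 3 libraries of 1 group limit every spread given here, and depth differed by over 2 times between libraries.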

Other observations

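Many members share a promoter region with another gene. In 23 of 78, or 29.5%, a protein-coding gene on the other strand started within 1000 bases upstream or overlapped the start by up to 200 bases. The same held for 13.2% of detected genes. The member had the higher mean level in 18 of 23 pairs, and 18 partners reached 1 TPM in every library. Mrps12 averaged 22.2 ± 13.2 TPM, and its neighbour Sars2, which charges mitochondrial tRNA, 3.32 ± 1.07 TPM (SD, n = 3 each). Mrpl36 averaged 28.8 ± 14.8 TPM, and Ndufs6, a subunit of respiratory complex I, 92.9 ± 12.1 TPM. Mrpl49 averaged 18.5 ± 5.59 TPM, and Fau, which encodes a cytosolic ribosomal protein, 641 ± 304 TPM. Mrpl30 averaged 125 ± 22.9 TPM, and Mitd1 65.0 ± 2.14 TPM. Pairs could part in replicate 2. Mrps7 had 20.6, 8.37 and 23.2 TPM in replicates 1, 2 and 3, and Gga3 had 14.4, 59.9 and 17.0 TPM.

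Of the 78 members, 21 overlapped another annotated gene at a mean of 1 TPM or more, 20 of them one on the opposite strand. No share of detected genes with such an overlap is given, so this count is not read as particular to the members. Mrpl18 averaged 42.4 TPM and its overlapping neighbour Tcp1, a chaperonin subunit, 102 TPM. Whether the libraries keep strand is not given in the sources used here, so reads in such overlaps may be shared. The members lie on 17 chromosomes, with 11 on chromosome 11.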
